A study of Mus musculus with 35 samples.

Results

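The 8 genes described here, Cachd1, Ednra, Kank4, Gpc3, Esx1, Sntb1, Gas6 and Piezo2, were chosen by their read counts in the clones, which were near 0 in one group of cell clones and plainly present in another. They are 8 of the 24421 genes counted in 35 RNA-seq libraries of immortalized mouse embryonic fibroblasts (iMEFs). Those clone values are given as a description with no test, and the 8 genes are tested only in the cell populations, which were not used in the choice. All cells came from a line with a Nelfb flox/- genotype, in which one copy of Nelfb can be cut out by Cre recombinase and the other is already lost. Nelfb encodes a subunit of the negative elongation factor (NELF), which holds RNA polymerase II shortly after the start of transcription.

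The 15 clone libraries came from stable clones, each grown from 1 cell after cells with an ectopic NELFB had lost the floxed copy to a Cre adenovirus (Ad-Cre). There were 3 clones each with WT NELFB, MT194 or MT486 in a pLenti vector, and 3 each with the WT(N48) or the Δ-C60 construct in a pBabe vector. MT194 and MT486 are point mutants of NELFB, and Δ-C60 is a C-terminal truncation. Vector and construct cannot be told apart between the pLenti and pBabe clones. The 20 population libraries came from mixed cell populations 7 days after virus, all with a pLenti vector that was empty (EV) or held WT, MT194, MT486 or DMT, the double mutant of MT194 and MT486. Each population received Ad-Cre-GFP or, as its control, Ad-GFP, in 2 replicates. The libraries held 18413284 to 27816723 reads on genes in the clones and 17969149 to 29080007 in the populations. In a population, fewer expressing cells and less RNA per cell cannot be told apart.

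Values are CPM, the reads of a gene scaled to the size of its library, after TMM scaling. A gene was called on in a library at 1 CPM or more, off at 3 reads or fewer, and low in between. A count of 0 in the shallowest clone library still allows up to 0.155 CPM (3 reads), which covers counting error only.

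The ectopic and endogenous Nelfb reads were checked against the labels first. In the EV populations Nelfb stood at 46.1 and 39.5 CPM with Ad-GFP and at 7.97 and 5.46 CPM with Ad-Cre. The log2 fold change was -2.67 (SE 0.215, adjusted p = 2.53e-05, edgeR quasi-likelihood test). In the 3 clone libraries labelled WT, Nelfb read 10.3, 109 and 15.5 CPM, so that clones 1 and 3 had levels closer to the EV-Cre populations than to the other 12 clones, which ranged from 56.2 to 247 CPM. They are therefore called the clones labelled WT, and each clone's own value is given. The 4 members that were on in clone 2 labelled WT (Ednra, Kank4, Esx1 and Sntb1) were also the 4 on in clones 1 and 3.

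Each of the 8 genes encodes a protein that meets the cell surface, the cell cortex or the nucleus in a different way. Gas6 is a secreted ligand of the TAM receptor tyrosine kinases. Ednra is the type A endothelin receptor, a G protein-coupled receptor. Gpc3, on the X chromosome, encodes glypican-3, a heparan sulfate proteoglycan tethered to the membrane that binds Wnt and Hedgehog proteins. Piezo2 is a mechanically gated cation channel best known from sensory neurons, and Cachd1 is a membrane protein related to the auxiliary subunits of voltage-gated calcium channels. Kank4 belongs to a family of talin-binding proteins near focal adhesions, and Sntb1 encodes β1-syntrophin, an adaptor of the dystrophin complex. Esx1 is an X-linked homeobox gene known from placenta and male germ cells.

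The bases just upstream of the start of 4 of the genes are shown because the table places each of them at the outermost RefSeq start of its gene, and they include CG-rich starts and one with the median number of CG. The windows of Cachd1 and Ednra are trimmed to the bases outside the exons annotated by GENCODE. They are from the RefSeq promoter table (build GRCm38.p6), in which 6 of the 8 members were found, and are written 5′ to 3′ on the strand of the gene with each CG dinucleotide in capitals. Gpc3 is read from the minus strand of chrX:52613975-52614224, Cachd1 from the plus strand of chr4:100776429-100776674, Gas6 from the minus strand of chr8:13494536-13494785 and Ednra from the minus strand of chr8:77724465-77724702.
Gpc3: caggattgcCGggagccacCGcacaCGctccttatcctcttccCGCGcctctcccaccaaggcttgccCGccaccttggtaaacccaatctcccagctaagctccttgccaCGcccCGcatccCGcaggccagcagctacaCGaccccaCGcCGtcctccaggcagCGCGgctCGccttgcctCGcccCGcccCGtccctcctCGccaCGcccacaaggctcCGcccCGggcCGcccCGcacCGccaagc
Cachd1: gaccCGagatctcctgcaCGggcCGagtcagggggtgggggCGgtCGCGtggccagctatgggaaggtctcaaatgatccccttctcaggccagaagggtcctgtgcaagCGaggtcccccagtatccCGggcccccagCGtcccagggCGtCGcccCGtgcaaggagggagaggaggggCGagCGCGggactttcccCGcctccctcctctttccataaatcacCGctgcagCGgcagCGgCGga
Gas6: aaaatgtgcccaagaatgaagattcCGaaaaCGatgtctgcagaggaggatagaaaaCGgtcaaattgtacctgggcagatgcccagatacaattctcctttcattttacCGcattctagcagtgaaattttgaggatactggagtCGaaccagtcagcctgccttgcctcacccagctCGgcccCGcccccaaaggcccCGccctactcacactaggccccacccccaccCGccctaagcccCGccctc
Ednra: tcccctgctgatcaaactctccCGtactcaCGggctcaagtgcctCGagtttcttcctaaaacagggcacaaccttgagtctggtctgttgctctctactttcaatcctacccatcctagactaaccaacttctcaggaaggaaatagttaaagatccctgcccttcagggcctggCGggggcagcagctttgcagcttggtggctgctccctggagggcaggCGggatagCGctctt

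In the full 250 bases upstream of the start, the letters CG occurred 25 times in Gpc3 and 21 times in Cachd1, but 10 times in Gas6 and 6 times in Ednra. Kank4 held 33 and Esx1 24, the latter upstream of a RefSeq start that lies inside the Esx1 gene as annotated by GENCODE. Over all 32851 windows of the same length the median was 6, and 92.1% held at least 1. Kank4 had more CG than 96.0% of windows and Gpc3 more than 89.3%, whereas Ednra had more than 49.6%. Genes at 0 reads in some clones thus included both CG-rich starts (Gpc3, Cachd1, Kank4) and a start near the median (Ednra).

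By annotation (GENCODE M21, GRCm38) the 8 genes were spread over 5 chromosomes. Cachd1 (chr4:100776675-101029220, plus strand) and Kank4 (chr4:98754898-98817537, minus strand) lie on chromosome 4. Ednra (chr8:77663031-77724464) and Gas6 (chr8:13465374-13494490) lie on chromosome 8, both on the minus strand. Gpc3 (chrX:52272426-52613950) and Esx1 (chrX:137115397-137122083) lie on the X chromosome, Sntb1 at chr15:55636388-55906949 and Piezo2 on chromosome 18, all on the minus strand.

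Gas6, the ligand, had the widest distance between populations and clones. In the 20 populations it ranged from 30.2 to 180 CPM, and no clone reached that range. The MT194 clones read 21.6, 1.66 and 14.5 CPM (441, 35 and 290 reads) and were the only group with all 3 clones on. The clones labelled WT held 4, 1 and 2 reads, the MT486 clones 9, 16 and 14, the WT(N48) clones 23, 36 and 4, and the Δ-C60 clones 7, 61 and 6. Gas6 was thus on in 6 of 15 clones and off in 2, clones 2 and 3 labelled WT. Per kilobase of exon its mean level was 40.6 CPM in the populations, above that of the other 7 members, and 1.20 CPM in the clones.

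Ednra was on in every MT194 clone and every clone labelled WT and at or near 0 in the pBabe clones. The clones labelled WT read 28.0, 12.1 and 9.89 CPM and the MT194 clones 24.4, 21.6 and 11.3 CPM. The MT486 clones held 7, 4 and 24 reads, the WT(N48) clones 2, 11 and 7, and the Δ-C60 clones 0, 2 and 0. The 6 clones of the first 2 groups did not overlap the other 9. The mean of the clones labelled WT, 16.7 ± 9.89 CPM, and the MT194 mean, 19.1 ± 6.90 CPM (SD, n = 3 each), lay within each other's spread. In the populations Ednra ranged from 7.86 to 20.02 CPM. The MT194 clones and those labelled WT were therefore near or above the level of the mixtures, whereas MT486 clone 3, just above the limit for on at 1.10 CPM, was below every mixture.

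Gpc3 was on in the 3 WT(N48) clones alone, at 20.2, 8.84 and 15.4 CPM (398, 177 and 439 reads). All 9 pLenti clones held 0 reads. The Δ-C60 clones held 1, 20 and 9 reads, or 0.0401, 0.749 and 0.444 CPM. All 20 populations expressed it, at 6.39 to 24.3 CPM, so that the WT(N48) mean of 14.8 ± 5.69 CPM (SD, n = 3) fell inside the range of the mixtures. Of the 11584 genes that were on in all 20 populations, Gpc3 was the 1 gene with 0 reads in each of the 9 pLenti clones.

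Cachd1 was on in all pBabe clones, where Ednra was at or near 0. In MT486 clones 1 and 2 neither of these genes was on, and in MT194 clone 2 both were. Cachd1 held 0 reads in the 3 clones labelled WT, 0, 0 and 4 in the MT486 clones, and 1, 75 and 6 in the MT194 clones, where clone 2 alone was on at 3.56 CPM. The WT(N48) clones read 13.8, 10.9 and 8.97 CPM and the Δ-C60 clones 49.8, 23.9 and 28.8 CPM. The groups WT(N48), at 11.2 ± 2.45 CPM, and Δ-C60, at 34.1 ± 13.8 CPM (SD, n = 3 each), did not overlap each other or any pLenti clone. The populations ranged from 3.58 to 17.8 CPM, below the lowest Δ-C60 clone.

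Piezo2 ran the other way between clones and populations. It was on in the MT194 clones (12.5, 2.94 and 8.31 CPM), the WT(N48) clones (7.56, 7.59 and 2.35 CPM) and the Δ-C60 clones (10.8, 17.6 and 15.1 CPM). The MT486 clones held 6, 8 and 1 reads and the clones labelled WT 12, 15 and 3. The populations lay between 0.227 and 1.59 CPM (6 to 39 reads) and only 5 of 20 were called on. All 9 clones that were on exceeded every population.

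Kank4 was on in all 9 pLenti clones and in none of the pBabe clones. The clones labelled WT read 27.5, 3.11 and 7.41 CPM, the MT194 clones 4.89, 1.42 and 5.30 CPM, and the MT486 clones 5.60, 7.39 and 7.04 CPM. The WT(N48) clones held 0, 8 and 26 reads and the Δ-C60 clones 1, 0 and 0. The clone value just below the limit for on was WT(N48) clone 3, at 0.911 CPM, and the one just above it among all members in the clones was Esx1 in MT486 clone 2, at 1.08 CPM. The clones labelled WT overlapped both mutant groups, whereas the 3 MT194 clones all lay below the 3 MT486 clones by a small margin. In the populations Kank4 ranged from 8.10 to 84.9 CPM.

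Sntb1 followed the same split less fully. The clones labelled WT read 5.87, 2.78 and 9.28 CPM, the MT194 clones 1.91, 4.69 and 0.400 CPM, and the MT486 clones 0.608, 0.689 and 0.414 CPM. The WT(N48) clones held 0, 0 and 9 reads and the Δ-C60 clones 0, 0 and 1. Sntb1 was thus on in 5 clones, low in all MT486 clones and off in 5 pBabe clones, while all 20 populations were on, at 1.43 to 9.52 CPM.

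Esx1, the homeobox gene, was on in 6 clones and in no population. The clones labelled WT read 1.18, 4.44 and 10.6 CPM, the MT194 clones 3.72, 0.427 and 13.2 CPM, and the MT486 clones 0.565, 1.08 and 0.414 CPM. The pBabe clones held 1 to 11 reads. In the populations the count was 1 to 7 reads, or at most 0.334 CPM. Clones of the same group thus differed widely, and MT194 clone 2 lay below every clone labelled WT. The trophoblast markers, which include Cdx2, Eomes and Elf5, summed to at most 1.60 CPM in any clone, and the most abundant of them, Plac1, reached 1.40 CPM.

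**Figure D1:**
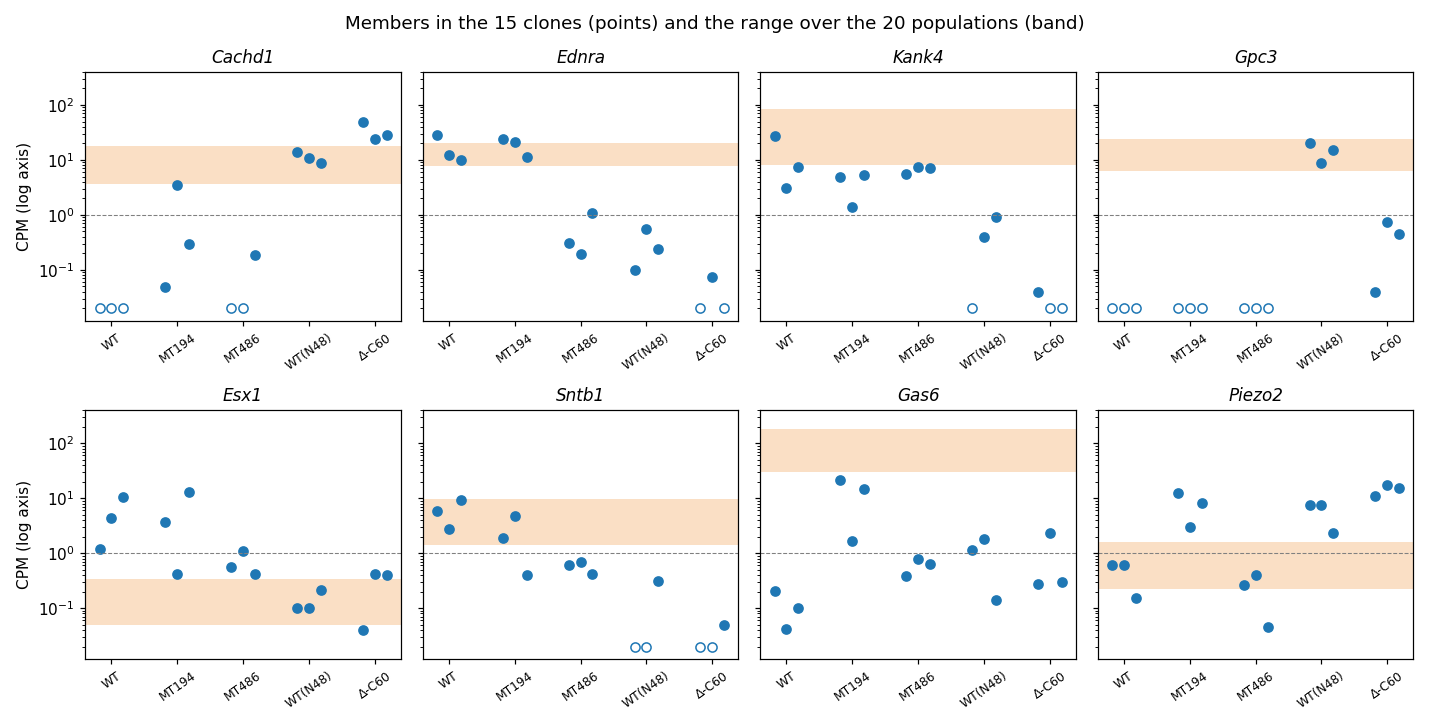
CPM of the 8 genes in each of the 15 clones, 1 panel per gene, on a log axis, with the 5 clone groups along the horizontal axis. Each point is 1 clone, open points drawn at the bottom are libraries with 0 reads, the dashed line marks 1 CPM, and the orange band is the range over the 20 populations. Gpc3 has 9 open points, no clone reaches the band for Gas6, and every clone with Esx1 or Piezo2 on lies above the band.

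Read across genes, each clone group had its own combination, and no 2 members shared the same set of on clones. Each of the 3 clones labelled WT had 4 members on. The MT194 clones had the most, 6, 6 and 5 of 8. The MT486 clones had the fewest among the pLenti groups, 1, 2 and 2, with Kank4 the one gene on in each. The WT(N48) clones had 4, 4 and 3 on, of which Cachd1, Gpc3 and Piezo2 were on in each clone, and the Δ-C60 clones had 2, 3 and 2, of which Cachd1 and Piezo2 were on in each. Every population had 6 or 7 members on, Cachd1, Ednra, Kank4, Gpc3, Sntb1 and Gas6 in each. The clone counts follow from the choice of the members and are a description only.

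The full pattern, on in every clone of 1 group and off in every clone of another, was met by 60 of the 11942 genes that were on in every clone of at least 1 group, or 0.502%. Of the 8 members, 5 met it (Cachd1, Ednra, Kank4, Gpc3 and Sntb1), which the choice of members fixes. Esx1, Gas6 and Piezo2 did not, with 6, 7 and 4 clones low. Of the 60 genes, 27 were on in all 20 populations, 3 were off in all 20, and 30 lay in between.

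Most expressed genes around the members did not share their off state. Among the 10 genes on either side of each member, those with a mean of 1 CPM or more in the populations were also on in every off clone of the member for 11 of 11 genes around Cachd1, 15 of 15 around Gas6 and 12 of 12 around Piezo2. The counts were 12 of 13 for Ednra, 11 of 12 for Kank4, 15 of 16 for Sntb1, 7 of 8 for Gpc3 and 6 of 9 for Esx1. The share of all expressed genes that were on in the same clones is not given. The counts are therefore a description and say nothing particular to these places in the genome. Among the neighbours of Esx1, 1 was off in all 3 clones with Esx1 off, Serpina7 (chosen after its values were seen). Usp1, a deubiquitinase gene next to Kank4, ranged from 88.9 to 178 CPM in the 4 clones with Kank4 off. Tmem184c, next to Ednra, ranged from 52.0 to 96.4 CPM in the 4 clones with Ednra off, and Mtbp, which lies 9965 bases from Sntb1, from 46.0 to 70.6 CPM in the 5 clones with Sntb1 off. Gpc4, the glypican gene adjacent to Gpc3, was on in all 15 clones. It ranged from 1.86 to 41.0 CPM in the 10 clones with Gpc3 off and from 41.4 to 92.8 CPM in the 3 with Gpc3 on, so these ranges did not overlap, although Δ-C60 clones 2 and 3, with Gpc3 low, read 90.0 and 235 CPM.

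**Figure D2:**
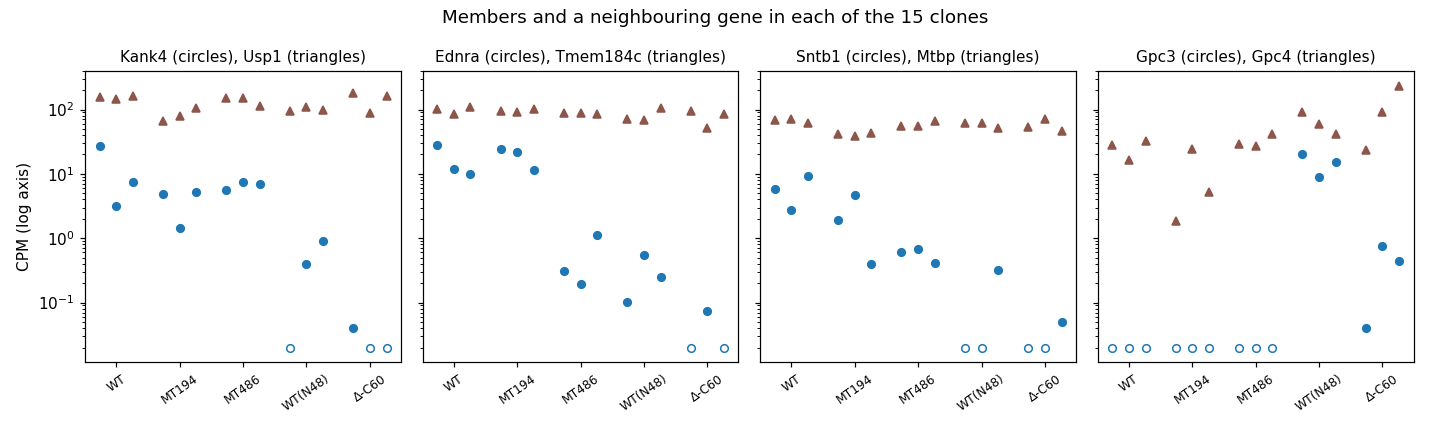
CPM on a log axis of 4 members (circles) and a neighbouring gene (triangles) in each of the 15 clones, ordered by clone group. Open circles at the bottom are libraries with 0 reads. Usp1, Tmem184c and Mtbp read 38.8 CPM or more in all clones, and Gpc4 is lowest in MT194 clone 1, at 1.86 CPM.

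The population libraries were used to ask whether the same genes changed within 7 days of the loss of Nelfb. Of the 8 members, 7 passed the filter on low counts and Esx1 did not. Kank4 fell with Ad-Cre in EV, MT194, MT486 and DMT, and Gpc3 fell in EV. Members called lower with Ad-Cre (adjusted p under 0.05 and a log2 fold change beyond 1, edgeR quasi-likelihood test) were 2 of 7 in EV, where 3.24% of all 13805 genes were called lower, 1 in MT194 (1.29%), 1 in MT486 (0.724%), 1 in DMT (2.69%) and 0 in WT (0%). None was called higher. In WT, Kank4 was the 1 member with an unadjusted p under 0.05 (0.000655, edgeR), and DESeq2 called 0 members. The median log2 fold change of the 7 was -1.27 in EV, -0.92 in MT194, -0.71 in MT486, -0.72 in DMT and -0.31 in WT, while the median of all genes was between -0.00875 and 0.014.

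Kank4 stood at 72.6 and 75.1 CPM in EV with Ad-GFP and at 12.1 and 8.10 CPM with Ad-Cre. The log2 fold change was -2.87 (SE 0.183, adjusted p = 2.67e-06), the third smallest p of all genes tested. In DMT it went from 69.7 and 68.1 CPM to 9.25 and 11.95 CPM, in MT194 from 56.2 and 52.0 CPM to 10.3 and 11.9 CPM, and in MT486 from 57.9 and 57.4 CPM to 17.5 and 19.0 CPM. These changes were -2.70 (SE 0.181, adjusted p = 6.21e-06), -2.29 (SE 0.179, adjusted p = 4.46e-05) and -1.66 (SE 0.175, adjusted p = 0.00061) on the log2 scale by the same edgeR test. With WT NELFB it went from 74.8 and 84.9 CPM to 49.0 and 45.8 CPM, a log2 fold change of -0.75 (SE 0.169, adjusted p = 0.221) that was not called. The Ad-Cre and Ad-GFP libraries did not overlap in any construct, and the share of all genes with this pattern is not given. Kank4 was lower with Ad-Cre in all 10 pairs of construct and replicate number, as were 14.9% of all genes tested. With the replicate number as a block the WT change had an adjusted p of 0.00398 (edgeR), but its size stayed within the fold limit.

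The difference between a construct's Cre effect on Kank4 and that in WT was tested as an interaction, a test chosen after seeing the data. It was -2.12 (SE 0.244, adjusted p = 0.003) for EV, where 0.681% of genes passed at an adjusted p under 0.05, and -1.95 (SE 0.243, adjusted p = 0.00975) for DMT, where 0.138% passed (edgeR). The DMT call was lost without any 1 of 6 of the libraries compared, with adjusted p from 0.0504 to 0.132 (edgeR). For MT194 it was -1.53 (SE 0.242) with an adjusted p of 0.119, or 0.000509 with the replicate block (edgeR). For MT486 it was -0.91 (SE 0.24), with a 95% interval of -1.43 to -0.39 before adjustment and an adjusted p of 1.00 (edgeR). The 4 tests share the WT libraries. For interactions with the block, here and below, the share of all genes that passed is not given. The clones give the other side of the same gene. Kank4 was on in all MT194 and MT486 clones, at 1.42 to 7.39 CPM, below the lowest population with the same construct and Ad-Cre (10.3 CPM for MT194 and 17.5 CPM for MT486). The clones labelled WT, at 3.11 to 27.5 CPM, also lay below the lowest WT population with Ad-Cre, at 45.8 CPM. Clones and populations were scaled apart, so these levels are set side by side without a test.

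Gpc3 went from 17.1 and 21.4 CPM to 6.44 and 9.18 CPM in EV, a log2 fold change of -1.30 (SE 0.35, adjusted p = 0.0278, edgeR). Without the block, this call was lost when any 1 of the 4 EV libraries was left out, with log2 fold changes from -1.57 to -1.07 (edgeR). With the replicate block and all libraries, Gpc3 in EV was called at -1.31 (adjusted p = 1.15e-05, edgeR). In the other constructs the log2 fold change was -0.92 in MT194, -0.71 in MT486, -0.72 in DMT and -0.52 in WT, none of them called. With the block the adjusted p was 0.000398 in MT194, 0.00395 in MT486, 0.00157 in DMT and 0.0717 in WT (edgeR). All 4 sizes stayed within the fold limit with the block, so none was called there either. The difference of the EV effect from that in WT was -0.78 (adjusted p = 0.616, or 0.0275 with the block, edgeR). Gpc3 was lower with Ad-Cre in all 10 pairs of construct and replicate number, as were 14.9% of all genes tested. Even the population with the fewest, EV-Cre replicate 1, held 143 reads.

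Sntb1 and Gas6 were also lower with Ad-Cre in 10 of 10 pairs. Sntb1 was higher in replicate 1 than in replicate 2 in all 10 groups, whereas Gas6, Gpc3, Cachd1 and Piezo2 were each lower in replicate 1 in all 10. In EV, Sntb1 went from 8.31 and 5.17 CPM to 3.60 and 1.60 CPM, a log2 fold change of -1.37 (SE 0.601, adjusted p = 0.165, edgeR). With the replicate block its adjusted p was 9.76e-06 in EV, 2.32e-05 in MT194 and 2.85e-06 in DMT, with log2 fold changes of -1.40, -1.40 and -1.56 (edgeR). The difference of its Cre effect from that in WT was -1.04 in EV, -1.04 in MT194 and -1.22 in DMT, with adjusted p of 0.729, 1.00 and 0.909, or 0.00668, 0.022 and 0.00411 with the block (edgeR). Gas6 in EV went from 124 and 150 CPM to 51.9 and 61.5 CPM, a log2 fold change of -1.27 (SE 0.464) with an adjusted p of 0.0941, or 0.00523 with the block (edgeR). In DMT it went from 75.7 and 115 CPM to 30.2 and 66.3 CPM, with an adjusted p of 0.207, or 0.0165 with the block (edgeR). With the block, members called lower were 4 in EV (4.56% of all genes), 3 in DMT (4.27%), 2 in MT194 (2.51%), 1 in MT486 (2.12%) and 0 in WT (0.485%).

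Cachd1, Ednra and Piezo2 gave no call in any construct. The largest log2 fold changes were -0.52 for Cachd1 in EV (95% interval -1.25 to 0.21), 0.40 for Ednra in MT194 (-0.37 to 1.17) and -0.94 for Piezo2 in MT194 (-2.43 to 0.55). Cachd1 and Ednra were lower with Ad-Cre in 4 of 10 pairs each, and Piezo2 in 9 of 10. Esx1 stayed between 1 and 7 reads in both arms.

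**Figure D3:**
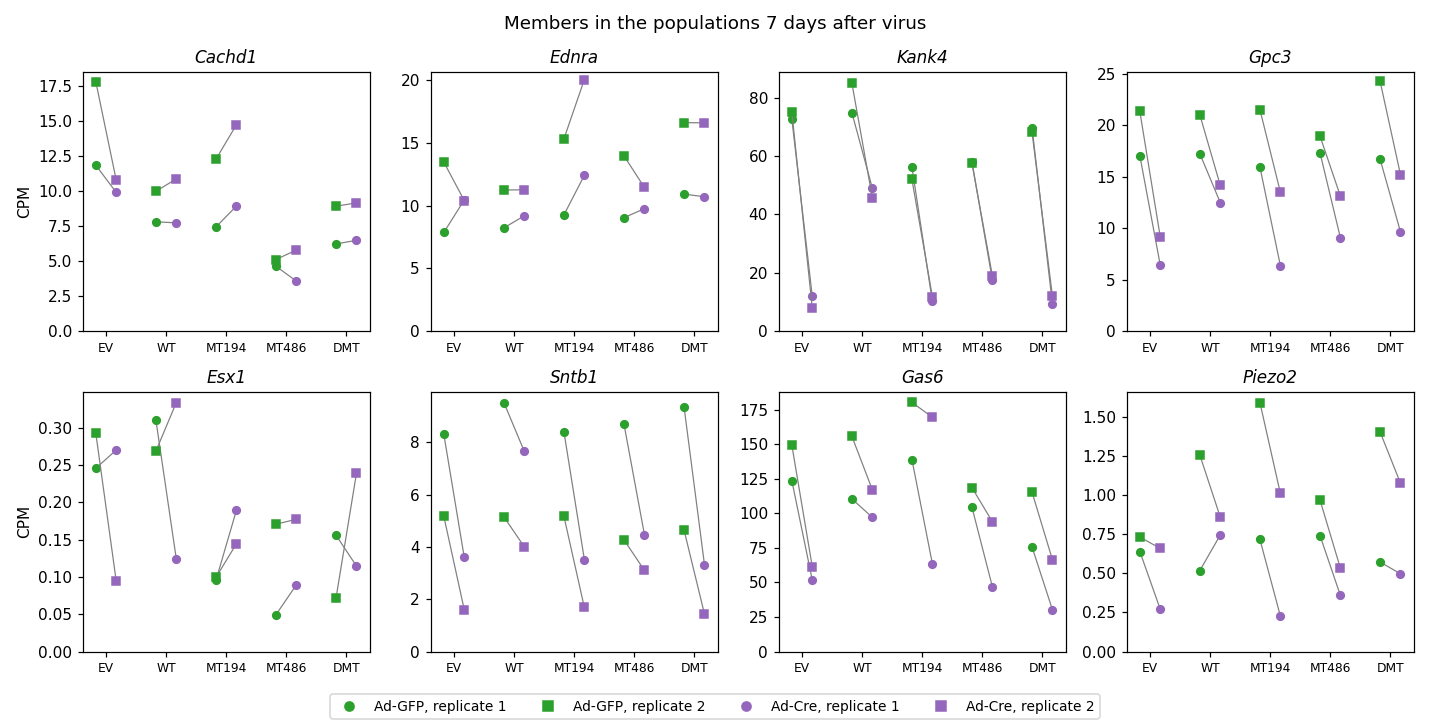
CPM of the 8 genes in the 20 populations, 1 panel per gene with its own linear axis from 0, by construct. Green points are Ad-GFP and purple points Ad-Cre libraries, circles are replicate 1, squares are replicate 2, and grey lines join the same construct and replicate number. For Kank4, Gpc3, Sntb1 and Gas6 all 10 lines go down.

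**Figure D4:**
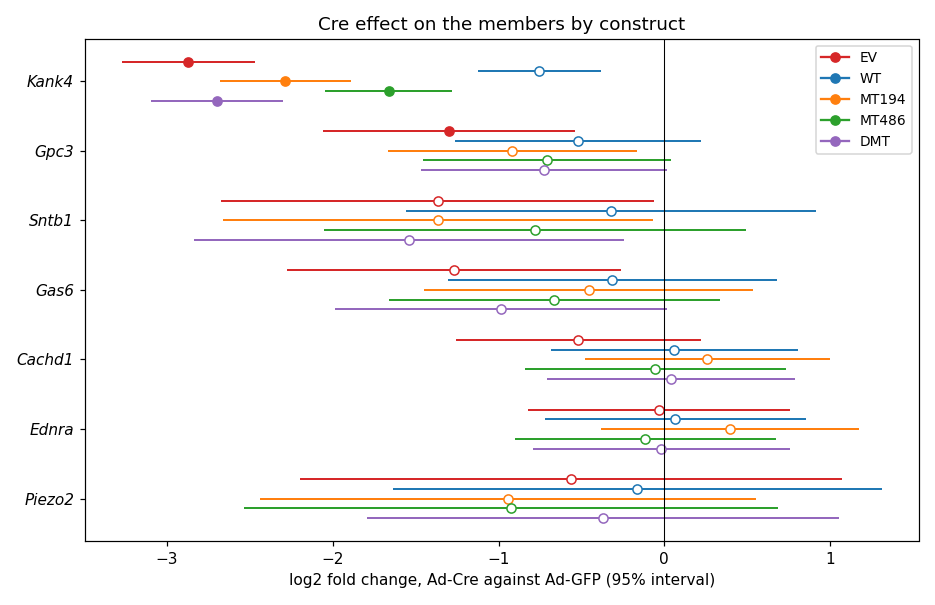
Log2 fold change of Ad-Cre against Ad-GFP for the 7 genes tested, by construct, with 95% intervals from the edgeR fit before adjustment over genes. Filled points were called. Kank4 has 4 filled points, from -2.87 in EV to -1.66 in MT486, and Gpc3 has 1.

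The 5 constructs with Ad-GFP, which received no Cre, were compared to ask whether the differences between clones were also present in these mixtures. No member was called in this test over 5 groups (edgeR, 4 degrees of freedom), in which 1 gene of 13805 was called (0.00724%) and 287 had an unadjusted p under 0.05. Cachd1, at 4.64 and 5.12 CPM in MT486 and 11.8 and 17.8 CPM in EV, had an unadjusted p of 0.00803 (edgeR), and Kank4 one of 0.0259. DESeq2 also called 0 members. With the replicate block Cachd1 had an adjusted p of 0.00133 and was called, among 0.876% of genes. MT486 was the construct with the lowest Cachd1 in the mixtures, and its 3 clones held 0, 0 and 4 reads, but the clones labelled WT held none while the WT populations read 7.82 and 9.99 CPM with Ad-GFP.

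Other genes of the same pathways were taken from 8 lists of relatives and partners. Of these 61 genes, 34 were on in all 15 clones, 12 in some and 15 in none, and 44 were tested in each set. Across the 5 clone groups 3 of the 44 (6.82%) were called, where 11.6% of all genes were (edgeR, 4 degrees of freedom). Leaving out 1 clone gave 1 to 10. These were the endothelin genes Edn1 (adjusted p = 0.0483) and Ece1 (adjusted p = 0.0236) and the dystrophin relative Utrn. Edn1, the ligand of Ednra, read 2.47, 0.664 and 1.72 CPM in the clones labelled WT and 0.832, 0.759 and 1.70 CPM in the MT194 clones, the 6 clones with the highest Ednra. It read 21.4, 12.3 and 4.10 CPM in the WT(N48) clones and 7.10, 3.93 and 36.5 CPM in the Δ-C60 clones, where Ednra was at 0 to 11 reads. The MT486 clones, with little Ednra, read 4.04, 4.14 and 0.276 CPM.

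Ednrb, the second endothelin receptor, held 0 reads in all 15 clones. In the populations it was on in 7 libraries and reached 1.79 CPM at most. Its read counts were 10 and 23 in EV with Ad-GFP and 2 and 2 with Ad-Cre. It held 31 and 36 reads against 3 and 5 in MT194, and 13 and 42 against 8 and 2 in DMT. It was called lower in EV (log2 fold change -3.06, SE 0.686, adjusted p = 0.0113), MT194 (-3.21, SE 0.57, adjusted p = 0.00682) and DMT (-2.49, SE 0.558, adjusted p = 0.0125) by edgeR, and was the 1 gene of the 44 called with Ad-Cre in any construct without the replicate block, where 8.13% of all genes tested were called in at least 1 construct. With the block 5 of the 44 were called in at least 1 construct, as were 13.9% of all genes tested (edgeR). Ednrb was also called in MT486 (-1.73, adjusted p = 0.015). Edn1 was called higher in EV (log2 fold change 1.41, adjusted p = 0.00844) and DMT (1.10, adjusted p = 0.0283). Cacna2d3, an auxiliary calcium channel subunit gene, was called lower in EV (-1.36, adjusted p = 0.000467), MT486 (-1.63, adjusted p = 0.000338), DMT (-1.53, adjusted p = 0.000108) and also WT (-1.14, adjusted p = 0.0154). Mertk, a Gas6 receptor gene, and the sarcoglycan gene Sgcb were called lower in EV (-1.12, adjusted p = 8.68e-05, and -1.02, adjusted p = 5.79e-06).

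Of the 61 relatives and partners, 34 were on in all 15 clones, 15 in none and 12 in some. Among the 12 were Cacna1i, a calcium channel gene (0 to 6.13 CPM, on in 7 clones), Dtna, which encodes a dystrobrevin (0.0489 to 31.5 CPM, on in 10), and Gpc6, a glypican gene (0.0493 to 62.0 CPM, on in 13). Sntg1, a syntrophin gene, held 0 reads in all 9 pLenti clones and 46 and 39 reads in WT(N48) clones 1 and 2. These were named after their values were seen. Axl, the most abundant Gas6 receptor, ranged from 340 to 1262 CPM in the clones and from 491 to 1260 CPM in the populations. Piezo1 ranged from 287 to 806 CPM, Kank2 from 115 to 235 CPM and Sntb2 from 52.9 to 137 CPM in the clones, each on in all 15. Gpc1 ranged from 121 to 745 CPM in the clones against 23.3 to 83.0 CPM in the populations. Of the X-linked homeobox list, Rhox5 was on in 1 clone, and Rhox6 and Rhox9 were at 0 in all 35 libraries.

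The fibroblast label was checked against marker genes. Col1a1 and Vim were at 1065 CPM or more in all 35 libraries, and Thy1 was at or near 0 in all of them. Pdgfra was as low as 5.48 CPM and Dcn as low as 0.493 CPM in single clones, against at least 801 and 1195 CPM in the populations. The smooth muscle marker Acta2 ranged from 3.40 to 3850 CPM in the clones. Epithelial Epcam, leukocyte Ptprc and glial Sox10 were at 0.12 CPM or less in all libraries. Xist was at 280 CPM or more in all 35 and the Y-linked genes at 0.15 CPM or less, so all the cells were female. The clones thus varied in marker genes beyond the 8 members, and the part of this variation in the members' states was not tested.

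Genes whose level followed a member over the 15 clones are named as a description, by Pearson's r of log2(CPM + 0.5), with clones that share vector and construct. Cachd1 was followed most closely by Hs2st1 (r = 0.94), a heparan sulfate 2-O-sulfotransferase gene, and by Lama2 (r = 0.94), a laminin chain gene with the same state in 13 of 15 clones. For Ednra the closest were Krt36, a keratin gene that was on in 4 clones, and Grik4, a glutamate receptor gene (r = 0.91 each). They had the same state as Ednra in 12 and 13 clones. For Gpc3 the closest was Ndn (r = 0.86), an imprinted gene, which read 58.0, 75.1 and 63.5 CPM in the WT(N48) clones and 0 to 2.83 CPM in the pLenti clones, but also 10.3 and 36.3 CPM in Δ-C60 clones 2 and 3, where Gpc3 was low. Its state matched that of Gpc3 in 11 of 15 clones. Ndn was also the 1 gene called among the constructs with Ad-GFP (adjusted p = 0.00464, edgeR), at 12.5 and 12.6 CPM in MT486 and 34.6 and 37.9 CPM in DMT. The call was lost without either MT486-GFP replicate, and the same comparison gave 48 genes by DESeq2 and 121 with the replicate block (edgeR). The closest genes to Kank4 (Thtpa, r = 0.92), Esx1 (Prosc, r = 0.89), Gas6 (Dexi, r = 0.94) and Piezo2 (Fam171b, r = 0.90) were on in all 15 clones, so they shared the order of levels but not the off state. For Sntb1 the closest was Gm16325 (r = 0.89), which was on in no clone.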

How the data were processed

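RNA-seq counts of 35 libraries were used. The authors made the deposited counts from 50 bp single reads of poly(A) RNA (stranded kit), aligned to mm10 with Bowtie2, kept at MAPQ of at least 30 and counted per gene with HTSeq. Tool versions, the annotation and the strand setting of the counting are not given in the sources used here, so reads of overlapping or antisense genes may be split differently elsewhere. Rows that name no gene (no feature, 9.14 to 21.3% of reads; ambiguous, 0.911 to 1.13%) stayed out of library sizes and tests.

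Clones and populations were each fitted with edgeR 4.0.16 (R 4.3.3) with filterByExpr, TMM, 1 mean per group and robust quasi-likelihood tests, with Benjamini-Hochberg adjustment over the 13223 and 13805 genes kept. Groups followed the labels. The 8 genes, the gene lists and the rules for named genes were chosen with earlier results of these data known. Named genes were the members, Nelfb, the 3 most correlated genes and the nearest protein-coding neighbours of each member (not all are printed), and called or abundant genes of the 8 lists. Alternatives were DESeq2 1.42.0, its size factors, no filter, a replicate block, other thresholds and leaving out single libraries. The scripts were tested on simulated data. The population replicates are 2 experiments in the study's methods. Same-numbered populations deviated together in 45 of 45 pairs of groups (r from 0.517 to 0.824), so the numbers were taken as paired, and blocked values are given where they change a call. Clone numbers showed no pairing (4 of 30 pairs of groups over 0.1, median r -0.0144). MT486 clones 1 and 2 were the closest of all replicates (chi-square per degree of freedom 5.06), still apart beyond sampling noise, and were kept as 2. Replicates differ as clones or as experiments, and p-values measure only that spread.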

Additional observations from a re-analysis of the deposited data

Results flagged for a closer look

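The fall of Kank4 with Ad-Cre differed between constructs by a test of the difference itself, which was chosen after the data were seen. The log2 change in EV minus that in WT was -2.12 (SE 0.244, adjusted p = 0.003, edgeR), and in DMT minus that in WT it was -1.95 (SE 0.243, adjusted p = 0.00975, edgeR). The differences from WT in MT194 (-1.53, adjusted p = 0.119) and MT486 (-0.91, adjusted p = 1.00) did not pass (edgeR). With the replicate block MT194 passed (adjusted p = 0.000509) and MT486 did not (adjusted p = 0.0563, edgeR). The DMT value lost its call without any 1 of 6 of the libraries compared (adjusted p from 0.0504 to 0.132, edgeR). These differences share the WT libraries and rest on 2 replicates per group. With Ad-Cre, the populations of EV, DMT, MT194 and MT486 all lay below both WT populations, and the share of all genes with this order is not given.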

How the results depend on the processing

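The calls of Kank4 in EV, MT194, MT486 and DMT kept their direction and their side of the threshold under 9 alternatives each, with log2 fold changes from -3.19 to -2.61, -2.40 to -2.18, -1.72 to -1.60 and -2.90 to -2.53. All genes called with the replicate block numbered 744 in MT194 (343 without it), 586 in MT486 (201), 1215 in DMT (733), 120 in WT (3) and 121 among the Ad-GFP constructs (1). Members called with the block numbered 4 in EV, 2 in MT194, 3 in DMT and 1 among the Ad-GFP constructs, against 2, 1, 1 and 0. The block changed no other call of a member in these tests, but brought past the threshold the interactions of Kank4 in MT194, Gpc3 in EV and Sntb1 in EV, MT194 and DMT. The share of all genes that passed these blocked interactions is not given, so they cannot be set against it. A fold limit of 0.5 gave 1626 genes in EV (900 at a limit of 1), 582 in MT194, 334 in MT486 and 1369 in DMT. DESeq2 called 364 in MT486, 27 in WT, 48 among the Ad-GFP constructs and 7 of the related genes across clones (3 by edgeR), and added Gas6 in EV (adjusted p = 0.037). Among the Ad-GFP constructs DESeq2 size factors gave 2 genes and no filter gave 3.

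Leaving out 1 library gave 490 to 692 genes in EV, 149 to 231 in MT194, 67 to 107 in MT486, 353 to 529 in DMT, 0 to 1 in WT and 0 to 1 among the Ad-GFP constructs, 1 member in EV, and 1 to 10 related genes across clones. The 1 gene was lost without either MT486-GFP replicate. The related genes numbered 1 without WT(N48) clone 1 or clone 2, 5 without WT(N48) clone 3, 6 without Δ-C60 clone 1 and 10 without Δ-C60 clone 2. The Kank4 interaction of DMT lost its call without any 1 of 6 libraries (adjusted p from 0.0504 to 0.132, edgeR). A lone library left in a group was assumed to vary like the other groups.

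The sign changed for 21 values, none of which was called. With the block Ednra in EV became 0.015 (log2). Without 1 library, values of opposite sign to the fit of all libraries were 0.40 for Ednra in EV; 0.085 for Gas6 in MT194; -0.14 and -0.06 for Cachd1 in MT194; 0.25 and 0.01 for Cachd1 and 0.23 for Ednra in MT486; 0.26 and 0.32 for Ednra, 0.08 and 0.45 for Piezo2 and -0.23 and -0.19 for Cachd1 in DMT. In WT they were -0.19 and -0.10 for Cachd1, -0.07 and -0.14 for Ednra, 0.08 and 0.18 for Sntb1 and 0.62 for Piezo2. The ranges over single libraries left out were -0.37 to 0.40 for Ednra in EV, -0.14 to 0.66 for Cachd1 and -1.33 to 0.085 for Gas6 in MT194, -0.446 to 0.25 for Cachd1 and -0.395 to 0.23 for Ednra in MT486, -0.37 to 0.32 for Ednra, -0.23 to 0.326 for Cachd1 and -1.02 to 0.45 for Piezo2 in DMT, and -0.19 to 0.287 for Cachd1, -0.14 to 0.309 for Ednra, -0.869 to 0.18 for Sntb1 and -0.645 to 0.62 for Piezo2 in WT. The cause was not tested.

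With on set at 2 CPM, Gas6 was on in 3 clones (6 at 1 CPM) and Piezo2 in 0 populations (5 at 1 CPM). With on set at 0.5 CPM, Piezo2 was on in 16 populations. The other counts of on clones and of on populations per member stayed within 1.5 times. This covers the members only, not the related genes or the number of members on per library. Groups of 2 or 3 libraries and low reads limit the precision, for example for Piezo2 and Esx1.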
